A study of Mus musculus with 14 samples.

Results

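The genes described here encode 10 antioxidant enzymes: Gpx1, Gpx4, Prdx1, Prdx5, Txn1, Txnrd1, Nqo1, Gclm, Mgst1 and Sod2. They were taken by name, with earlier results of these data known, from a deposited table of 24556 mouse genes. All 10 had a row. RNA had been sequenced from fractions of 4T1 tumours of Balb/c mice that were collected with magnetic beads against the macrophage surface antigen encoded by Adgre1. 4T1 is a mouse mammary carcinoma line. Before they were injected into the fat pad, the 4T1 cells had been kept for 5 days with 5 µM GSK269962A or with DMSO, the vehicle. Below, DMSO and GSK name that pre-treatment of the tumour cells. Treatment of the mice themselves, their age, and whether animals were pooled are not given in the sources used here. Day 8 after injection gave 3 libraries per pre-treatment (DMSO, GSK), and day 14 gave 4 per pre-treatment. The labels number the libraries but do not say that each came from its own mouse, so the p-values measure the spread between these samples, which may be technical.

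Cells remove reactive oxygen in steps. Superoxide dismutases turn superoxide into hydrogen peroxide, and glutathione peroxidases and peroxiredoxins reduce peroxides further. Glutathione peroxidases draw on glutathione, and most peroxiredoxins draw on thioredoxin, which thioredoxin reductase restores with NADPH. Many of these genes are targets of NRF2 (Nfe2l2), a transcription factor that pairs with small MAF proteins on the antioxidant response element and is held back by KEAP1 and BACH1. Macrophages produce reactive oxygen when they take up and kill microbes, and use these enzymes to limit damage to themselves.

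The core of the antioxidant response element is written TGACNNNGC. It was searched on both strands of the RefSeq promoter windows of the GRCm38.p6 build, each running from 250 bases before to 50 bases after a gene's start. All 10 genes had at least 1 such window, and 4 of the 10 (40%) held a match, against 3781 of 27025 genes (14%). Genes with more windows had more chances of a match: Gpx4 had 4 windows, Txnrd1 3 and Mgst1 2, against 1 for each other enzyme. Counted by window rather than by gene, 4071 of 32851 windows over all genes (12.4%) held a match. The 4 matches are shown because they are the sequences that these genes share, with 10 flanking bases on each side. All 4 are read on the minus strand, 5′ to 3′, and the capitals mark the match.
Prdx1 at chr4:116685456-116685484, upstream of the gene: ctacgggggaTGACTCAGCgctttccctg
Txnrd1 at chr10:82859104-82859132, in an intron: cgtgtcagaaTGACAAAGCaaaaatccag
Gclm at chr3:122245413-122245441, upstream of the gene: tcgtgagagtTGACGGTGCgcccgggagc
Mgst1 at chr6:138140461-138140489, in an annotated exon: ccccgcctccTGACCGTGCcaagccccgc
The Txnrd1 match lies in the second of the 3 windows that RefSeq gives for that gene. Txn1, which together with Mgst1 carries the main result below, had no match in its window. Its 250 bases before the start, of which 64% are G or C, are shown for comparison, read on the minus strand.
Txn1 at chr4:57956412-57956661, upstream of the gene: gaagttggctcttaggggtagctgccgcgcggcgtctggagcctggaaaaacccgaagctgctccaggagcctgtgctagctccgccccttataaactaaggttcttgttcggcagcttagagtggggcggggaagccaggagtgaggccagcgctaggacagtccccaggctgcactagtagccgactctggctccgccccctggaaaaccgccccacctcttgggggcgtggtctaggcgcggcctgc
A match describes these letters and is not evidence of a bound factor, and no match says only that the letters are not in that window.

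All values are on the authors' log2 scale. A gene was tested when 3 or more libraries had an unlogged value of 10 or higher (3.32 on that scale). This kept 11886 genes and 9 of the 10 enzymes, all but Nqo1. Differences were fitted with limma over all 14 libraries, and a gene passed when its p, Benjamini-Hochberg adjusted across all tested genes, was under 0.05. SE is the standard error of that fit, and intervals are 95% confidence intervals. The table holds no counts, so library depth is unknown.

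Pearson correlations between libraries of 1 group lay between 0.967 and 0.994. A pair of overlapping ribosomal RNA genes split the libraries: AY036118 was the higher of the pair in 9 libraries (4 of 4 GSK day 14, 2 of 4 DMSO day 14, 2 of 3 GSK day 8 and 1 of 3 DMSO day 8), and Gm42418 in 5. Values within the libraries with AY036118 higher stand beside the enzymes' results that passed, and for the other named genes where they ended a call. The fractions carried macrophage genes: 10 of 10 macrophage markers were kept, with list means of 11.70 and 11.69 in DMSO and GSK on day 8, and of 11.91 and 12.14 on day 14. Of 12 neutrophil markers 5 were kept. Among these, Retnlg lay at 9.60 to 11.24, Mmp8 at 6.02 to 8.09 and Csf3r at 5.91 to 7.08. S100a8 lay at 3.67 to 4.35 and S100a9 at 3.71 to 4.51. Elane and Mpo, made in immature neutrophils, lay at or below -1.82 in every library. Also not kept were Cxcr2 at 2.83 to 3.32, Ltf at 2.78 to 3.77, Ly6g at 2.54 to 2.96 and Ngp at 0.46 to 0.64. Of 14 markers of 4T1 epithelium 12 were kept, with means of 5.92 ± 0.42 and 6.45 ± 0.73 on day 8 (SD, n = 3 each), and of 5.26 ± 0.13 and 4.90 ± 0.09 on day 14 (SD, n = 4 each). By median, the kept genes of that list ran from Sfn, at 3.02 to 4.10, up to Cdh1, at 9.90 to 10.66. Krt18 lay at 6.20 to 10.69, and Epcam, an epithelial adhesion gene, at 3.39 to 4.60. Krt5 was not analysed here. In these bulk fractions, fewer cells of a type and less RNA per cell cannot be told apart.

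Ordered by level per kilobase of annotated exon, Gpx1, the cytosolic glutathione peroxidase, stood first with a median of 11.88 on the log2 scale over the 14 libraries. Below it came Prdx1 at 11.00 and Prdx5 at 10.87, peroxiredoxins of the cytosol and mainly of the mitochondria, whose order was the other way round in 5 libraries. Txn1, cytosolic thioredoxin, had 8.57 per kilobase. Gpx4, the peroxidase of membrane lipids, had 7.08, and Sod2, the mitochondrial superoxide dismutase, had 7.00. These last 2 were not separated: Sod2 was the higher in 7 of 14 libraries. Txnrd1, cytosolic thioredoxin reductase, followed at 6.41, Mgst1, a glutathione transferase of the endoplasmic reticulum and outer mitochondrial membrane, at 5.05, and Gclm, the modifier subunit of the enzyme that starts glutathione synthesis, at 2.00. Nqo1, an NADPH-using quinone reductase, was last at -0.35. Ranges over the libraries did not overlap between Gpx1 and Prdx1, between Prdx5 and Txn1, between Mgst1 and Gclm, or between Gclm and Nqo1, while every other neighbouring pair overlapped. The values of Gpx4 in this order rest on a row that shares sequence with a pseudogene, described below. The order also depends on the length used, that of all annotated exons together, such as 10008 bases for Sod2 and 7086 for Txnrd1. Without that division the medians were 12.60 for Prdx1, 12.41 for Gpx1, 11.97 for Prdx5 and 10.33 for Sod2. Below them came Txnrd1 at 9.23, Txn1 at 8.64 and Gpx4 at 7.86.

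**Figure D1:**
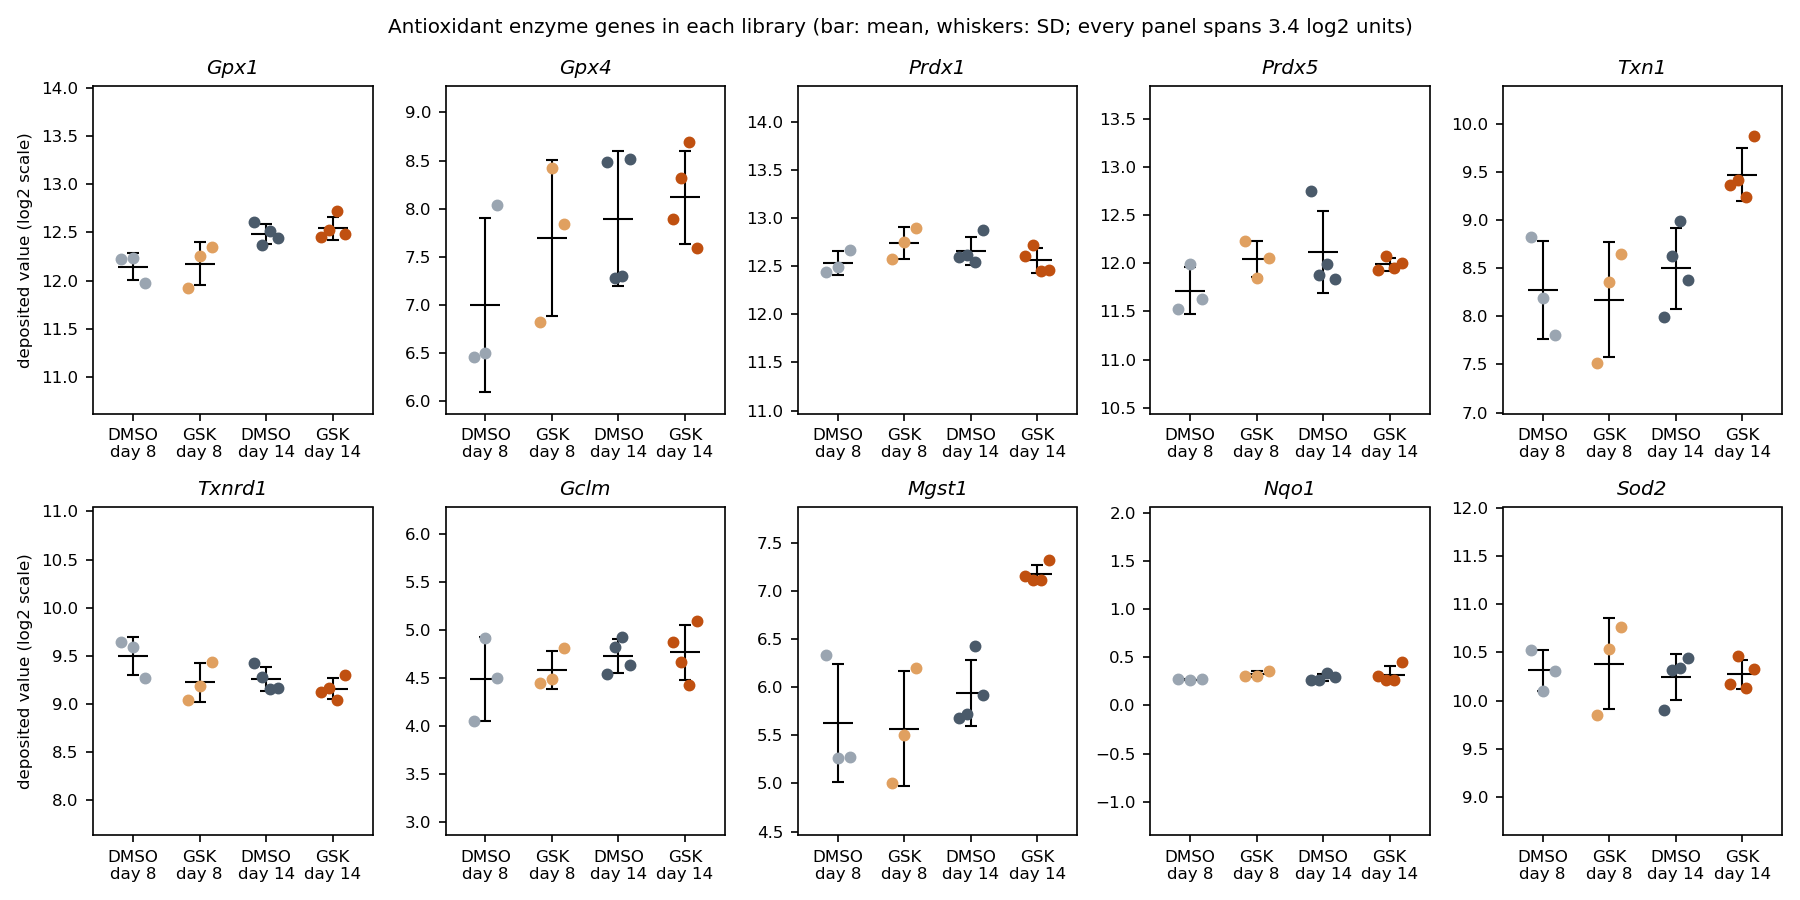
Deposited log2 value of each of the 10 enzyme genes (y axis, 1 panel per gene, each with its own scale) in the 14 libraries, grouped on the x axis by pre-treatment and day; points are libraries, horizontal bars are group means and whiskers are SDs. Txn1 and Mgst1 are the panels in which all 4 GSK day 14 libraries, at 9.24 or more and 7.11 or more, lie above the other 10 libraries.

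On day 14, Mgst1 and Txn1 rose with GSK pre-treatment, and the other 7 enzymes tested did not pass. That is 2 of 9, both higher, where 10.8% of all kept genes passed, 5.1% of them higher. The 7 that did not pass had changes from -0.13 to 0.23 and adjusted p from 0.655 to 0.952. The median change of the 9 was 0.03, beside 0.02 over all kept genes.

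Mgst1, which conjugates glutathione to electrophiles and reduces lipid peroxides, lies at chr6:138140316-138156755. It had 5.68, 5.72, 6.43 and 5.92 in DMSO day 14 libraries 1 to 4, and 7.15, 7.11, 7.11 and 7.32 in GSK day 14 libraries 1 to 4. The groups did not overlap, and the GSK libraries lay within a narrow band. The means were 5.94 ± 0.34 and 7.18 ± 0.10 (SD, n = 4 each), a log2 change of 1.24 (SE 0.26, interval 0.68 to 1.80), or 2.36-fold, with a limma adjusted p of 0.0115. Within the libraries with AY036118 higher the change was 1.12 with a limma adjusted p of 0.0245. It no longer passed without GSK day 14 library 4 (1.19, adjusted p 0.0521), and passed in 26 of 27 alternatives.

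Txn1, the small protein that hands electrons to peroxiredoxins and other disulphides, lies at chr4:57943373-57956411. It had 7.99, 8.63, 8.99 and 8.38 in DMSO day 14 libraries 1 to 4, and 9.36, 9.41, 9.24 and 9.87 in GSK day 14 libraries 1 to 4. These groups did not overlap either, though the DMSO libraries spread more widely than the gap between the groups. The means were 8.50 ± 0.42 and 9.47 ± 0.28 (SD, n = 4 each), a log2 change of 0.97 (SE 0.27, interval 0.41 to 1.54), or 1.96-fold, with a limma adjusted p of 0.0317. Within the libraries with AY036118 higher it was 0.98 with a limma adjusted p of 0.0435, and with the split as a term it was 0.85 and no longer passed (adjusted p 0.11). Without the filter on low values it did not pass either (adjusted p 0.0854). Of the DMSO day 14 libraries, leaving out 1 (0.80, adjusted p 0.081), 2 (1.02, 0.0682) or 4 (0.93, 0.0764) also ended the call. Of the GSK day 14 libraries, leaving out 1 (1.01, adjusted p 0.0591), 2 (0.99, 0.0586) or 4 (0.84, 0.127) did. Of the 31-base words in its exons, 6.95% also occur in 1 other gene, Txn-ps1, whose row lay between -1.86 and -1.84 in every library.

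2 of 9 enzymes had day 14 groups without overlap, the same 2 genes, where 22% of all kept genes had such groups. Within groups, Txn1 and Mgst1 were also among the more variable genes: their within-group SDs were 0.47 and 0.46, larger than those of 95.3% and 94.8% of the kept genes, whose median was 0.24. At an unadjusted p under 0.05 there were also 2 of 9 on day 14, these same genes, where 27.3% of all kept genes had one. In 4 of 4 groups the library with the highest Txn1 was also the one with the highest Mgst1, and in 2 of 4 groups the lowest libraries were the same. On day 14, 0 of the 12 kept 4T1 epithelium markers passed, with a median change of -0.28. Their summed levels overlapped, at 10.45 to 11.06 in DMSO and 10.31 to 10.77 in GSK. Cdh1 weighs most in that sum, with a median of 10.41 over all libraries, against 7.79 for Krt18, the next highest. The list mean, in which each marker weighs alike, did not overlap, at 5.16 to 5.45 in DMSO and 4.78 to 5.01 in GSK. With the mean of that list as a covariate, the change of Mgst1 was 0.93 (limma adjusted p 0.0317) and that of Txn1 was 0.69, which did not pass (limma adjusted p 0.102). Of 13 mitochondrially encoded genes 5 rose on day 14, with a median change of 0.88. Their summed levels overlapped, at 15.76 to 16.10 in DMSO and 15.98 to 16.68 in GSK. Their list mean did not, at 9.52 to 10.12 in DMSO and 10.23 to 10.97 in GSK. The part of these genes in these results was not tested. Adgre1, the gene of the isolation marker, had 9.49 ± 0.40 and 10.19 ± 0.11 (SD, n = 4 each), a log2 change of 0.70 with a limma adjusted p of 0.0413. With it, 5 of the 10 macrophage markers passed, in both directions: Cd68 rose by 1.04 and Lyz2 by 0.81, while C1qa changed by -0.85 and Itgam by -0.59. Within the libraries with AY036118 higher, Adgre1 changed by 0.38 and did not pass (limma adjusted p 0.108), and leaving out 1 library ended its call in 7 of 14 cases, with adjusted p up to 0.135.

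The enzymes that work beside them on peroxide differed little on day 14. Gpx1 (chr9:108338903-108340343) had 12.61, 12.37, 12.51 and 12.44 in DMSO libraries 1 to 4, and 12.45, 12.52, 12.72 and 12.48 in GSK libraries 1 to 4. The groups overlapped in part, and the change was 0.06 with an interval of -0.22 to 0.33. Prdx1 (chr4:116685544-116700822) had 12.59, 12.62, 12.54 and 12.87 in DMSO, and 12.61, 12.72, 12.45 and 12.46 in GSK, a change of -0.09 with an interval of -0.36 to 0.18. Among the 9 enzymes Prdx1 had the narrowest intervals, and its within-group SD of 0.14 was larger than that of 6.62% of kept genes. Of its 31-base words, 15.2% occur in other genes. Prdx5 (chr19:6906697-6910106) had 12.75 in DMSO library 1 and 11.84 to 12.75 over all 4 DMSO libraries, and 11.93 to 12.08 in GSK. Its high DMSO value came from that 1 library, and the change was -0.13 with an interval of -0.51 to 0.26. Prdx5 overlaps Trmt112 on the opposite strand over 409 of its 2139 exon bases, and whether the counting used strand is not given in the sources used here, so reads of both genes cannot be told apart there.

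Txnrd1 (chr10:82833951-82897712), which restores oxidised thioredoxin, did not move with Txn1: it had 9.26 ± 0.13 in DMSO and 9.16 ± 0.11 in GSK on day 14 (SD, n = 4 each). The change was -0.10 with an interval of -0.38 to 0.17, which does not include the 0.97 of Txn1, though the difference between the genes was not tested. Gclm (chr3:122245557-122270732) ranged from 4.54 to 4.93 in DMSO and from 4.43 to 5.09 in GSK, a change of 0.03 with an interval of -0.37 to 0.42. Sod2 (chr17:13006846-13040063) ranged from 9.90 to 10.44 in DMSO and from 10.13 to 10.46 in GSK, a change of 0.03 with an interval of -0.36 to 0.41. In both genes the groups overlapped. Of Sod2's 31-base words, 26.6% occur in other genes, and of Gclm's, 5.61%. Nqo1 (chr8:107388225-107403206), a widely used readout of NRF2 activity, lay between 0.26 and 0.45 in every library, with a median unlogged value of 1.22. Among the 7912 rows that stay below 1 in every library the median SD over libraries was 0.03, against 0.28 for kept genes, so a difference in Nqo1 was not detectable in this table.

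**Figure D2:**
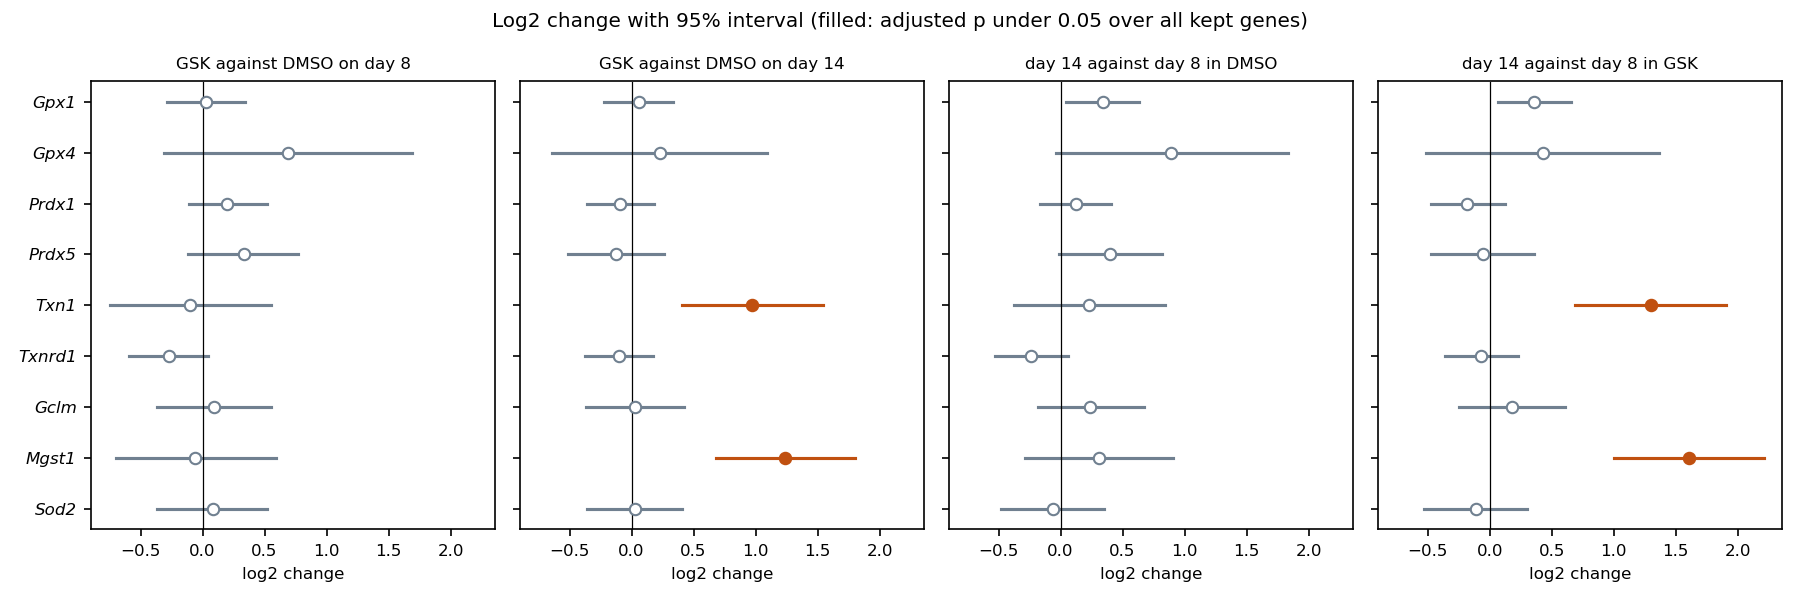
Log2 change with its 95% confidence interval (x axis) for the 9 enzymes tested (y axis) in 4 comparisons, 1 panel each; filled points passed the adjusted p threshold of 0.05 and open points did not. The filled points are Mgst1 and Txn1, on day 14 (1.24 and 0.97) and between the days in GSK (1.61 and 1.30), and Gpx4 has the widest interval in each panel.

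Gpx4, which repairs peroxidised membrane lipids and guards against ferroptosis, was the most variable of the 9. On day 8 it had 6.46, 6.50 and 8.04 in DMSO, and 6.82, 8.42 and 7.84 in GSK. On day 14 it had 8.49, 7.28, 7.30 and 8.52 in DMSO, and 7.89, 8.32, 8.69 and 7.59 in GSK. Values scattered within every group, with a within-group SD of 0.74 that was larger than that of 98.8% of kept genes. The change was 0.69 on day 8 (interval -0.31 to 1.69) and 0.23 on day 14 (interval -0.64 to 1.09), and neither passed (limma adjusted p 0.497 and 0.769). Gpx4 (chr10:80047166-80056439) shares 38.7% of its 31-base words with Gpx4-ps2, a processed pseudogene at chr10:45875291-45876086, so how reads were divided between the rows is uncertain.

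Most of the signal of this pair lay on the pseudogene's row. Gpx4-ps2 had 11.34, 11.15 and 10.80 in DMSO and 11.01, 10.15 and 9.92 in GSK on day 8. It had 10.66, 11.00, 10.34 and 10.25 in DMSO and 9.24, 9.23, 9.56 and 9.26 in GSK on day 14. All 4 GSK day 14 libraries lay below the other 10, and the row fell by 1.24 on day 14 (SE 0.22, limma adjusted p 0.00548). Its change within the libraries with AY036118 higher was -1.18 (limma adjusted p 0.00387). The Gpx4 row took 3.29% to 12.9% of the pair's unlogged sum in DMSO day 8, 5.17% to 23.2% in GSK day 8, 7.04% to 23.1% in DMSO day 14 and 23.9% to 35.4% in GSK day 14.

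The summed pair, chosen after the data were seen, had 10.95, 11.11, 10.51 and 10.63 in DMSO and 9.72, 9.84, 10.19 and 9.66 in GSK on day 14. These groups did not overlap, and their means were 10.80 ± 0.28 and 9.85 ± 0.24 (SD, n = 4 each). The sum fell by 0.95 (SE 0.19, limma adjusted p 0.00842), while the Gpx4 row alone had a change of 0.23. It passed in 14 of 14 fits that left out 1 library (limma adjusted p 0.00297 to 0.0426), and within the libraries with AY036118 higher (-0.88, adjusted p 0.0243). On day 8 the means of the sum were 11.20 ± 0.19 and 10.61 ± 0.44 (SD, n = 3 each), and the change of -0.58 did not pass (limma adjusted p 0.203). Over both days the sum fell by 0.77 (SE 0.14, limma adjusted p 0.00407), and the difference between the days, -0.36, did not pass (limma adjusted p 0.73). Whether these rows hold transcripts of Gpx4 or of the pseudogene cannot be told apart in this table.

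**Figure D3:**
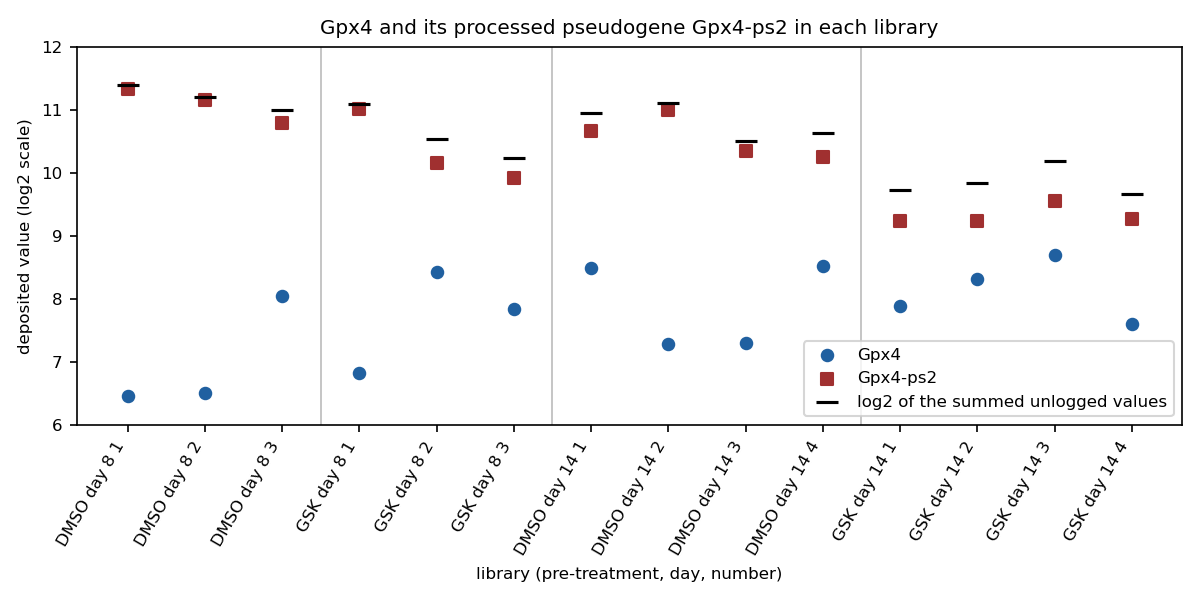
Gpx4, Gpx4-ps2 and their unlogged sum, on the log2 scale (y axis), in the 14 libraries by group (x axis); circles are Gpx4, squares are Gpx4-ps2, dashes are the sum, and vertical lines part the groups. The sum follows the pseudogene's row and lies between 9.66 and 10.19 in GSK day 14, below the 10.51 to 11.11 of DMSO day 14.

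On day 8, 0 of the 9 enzymes passed, where 0.194% of all kept genes (23) did, and 0 had groups without overlap, where 16.2% of all kept genes had them. At an unadjusted p under 0.05 there were also 0 of 9, and 1939 of the kept genes (16.3%). Changes ran from -0.27 for Txnrd1 to 0.69 for Gpx4, and limma adjusted p from 0.378 to 0.946. Mgst1 had 6.33, 5.26 and 5.28 in DMSO and 5.01, 5.50 and 6.20 in GSK. Each group held 1 high library, DMSO 1 and GSK 3, and the change was -0.06 with an interval of -0.70 to 0.59. Txn1 had 8.82, 8.19 and 7.81 in DMSO and 7.51, 8.36 and 8.65 in GSK, with its highest values in those same libraries. Its change was -0.10 with an interval of -0.75 to 0.55, so neither interval reaches the day 14 change of the same gene. The day 8 changes of both genes turned positive without DMSO library 1 (0.30 for Mgst1, 0.17 for Txn1) or GSK library 1 (0.23 for each), and did not pass. Across the day 8 libraries the 4T1 epithelium list mean was lowest in DMSO 1 (5.56) and GSK 3 (5.66), and highest in GSK 1 (7.09). With that mean as a covariate the day 8 changes were 0.39 for Mgst1 and 0.31 for Txn1. Neither passed (limma adjusted p 0.484 and 0.62).

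The other day 8 changes were 0.03 for Gpx1, 0.20 for Prdx1, 0.33 for Prdx5, 0.09 for Gclm and 0.08 for Sod2. Prdx5 had the highest of these, with 11.53, 11.99 and 11.63 in DMSO and 12.23, 11.85 and 12.05 in GSK, overlapping groups and an interval of -0.12 to 0.77. Txnrd1 had 9.50 ± 0.20 in DMSO and 9.23 ± 0.20 in GSK (SD, n = 3 each), with overlapping groups and an interval of -0.59 to 0.04.

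Averaged over both days, 0 of the 9 enzymes passed, where 14.5% of all kept genes did. Mgst1 had a mean change of 0.59 (SE 0.20, limma adjusted p 0.059), Txn1 of 0.43 (SE 0.20, limma adjusted p 0.161) and Txnrd1 of -0.19 (SE 0.10, limma adjusted p 0.209). At an unadjusted p under 0.05 there were 2 of 9, Mgst1 and Txn1, where 30.6% of all kept genes had one. Mgst1 passed without DMSO day 8 library 1 (0.77, limma adjusted p 0.0163), GSK day 8 library 1 (0.73, 0.0175) or DMSO day 14 library 3 (0.67, 0.0328), and Txn1 passed without GSK day 8 library 1 (0.60, limma adjusted p 0.035).

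The difference between the day 14 and day 8 changes was tested directly. It was 1.30 for Mgst1 (SE 0.40, interval 0.44 to 2.15, limma adjusted p 0.504) and 1.07 for Txn1 (SE 0.41, interval 0.21 to 1.94, limma adjusted p 0.537). Neither passed, and 1 of all kept genes did (0.00841%), so these data do not show that the effect differed between the days. At an unadjusted p under 0.05 there were 2 of 9, Mgst1 and Txn1, and 987 of all kept genes (8.3%). With the 4T1 epithelium list mean as a covariate, the difference was 0.54 for Mgst1 and 0.37 for Txn1, and neither passed.

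Between days, Mgst1 and Txn1 rose in GSK, and 0 of the 9 enzymes passed in DMSO. In GSK, where 7.01% of all kept genes passed, these were 2 of 9. Mgst1 went from 5.57 ± 0.60 (SD, n = 3) to 7.18 ± 0.10 (SD, n = 4), a log2 change of 1.61 (SE 0.28, interval 1.00 to 2.21) with a limma adjusted p of 0.00628. Txn1 went from 8.17 ± 0.59 (SD, n = 3) to 9.47 ± 0.28 (SD, n = 4), a log2 change of 1.30 (SE 0.29, interval 0.69 to 1.91) with a limma adjusted p of 0.0184. The day 8 and day 14 libraries of both genes did not overlap. The day 14 GSK libraries are the same ones as in the day 14 comparison, so these results share them.

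Gpx1 was the other gene without overlap in GSK, at 12.18 ± 0.23 on day 8 (SD, n = 3) and 12.54 ± 0.12 on day 14 (SD, n = 4). Its change of 0.36 did not pass (limma adjusted p 0.117). These 3 of 9 enzymes had GSK groups without overlap, where 30.3% of all kept genes did, and the same 3 had an unadjusted p under 0.05, where 24.9% of all kept genes did. Within the libraries with AY036118 higher the change of Mgst1 was 1.32 (limma adjusted p 0.0199), and that of Txn1 was 0.97, which did not pass (limma adjusted p 0.0726). Txn1 also did not pass without GSK day 8 library 1 (0.97, limma adjusted p 0.127) or GSK day 14 library 4 (1.17, 0.0736), or without the filter on low values (1.30, 0.0571).

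Markers of the tumour cells moved with the same contrast. Of the 12 kept 4T1 epithelium genes 8 fell between the days in GSK, with a median change of -1.69 and summed levels from 10.90 to 12.10 on day 8 and from 10.31 to 10.77 on day 14. Krt18, a keratin, fell by 2.95. With the mean of that list as a covariate the change of Mgst1 was 0.29 and that of Txn1 was 0.07, each with a limma adjusted p of 1, and 1 of all kept genes passed. The list mean and the day are confounded here and cannot be told apart. The globin genes Hba-a1 and Hba-a2 both fell in the same comparison, Hba-a1 by a log2 change of -1.44 and Hba-a2 by one of -1.90. Of the 13 mitochondrially encoded genes 5 rose in it, with a median change of 0.84. Their summed levels overlapped, at 15.73 to 16.40 on day 8 and 15.98 to 16.68 on day 14. Their list mean did not, at 9.76 to 10.03 on day 8 and 10.23 to 10.97 on day 14. The macrophage marker Lyz2 also rose, by 1.26. For the globin, mitochondrial and macrophage genes, their part in these results was not tested.

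In DMSO, 0.824% of all kept genes passed between the days, 0.303% higher and 0.522% lower. Mgst1 changed by 0.31 (interval -0.29 to 0.91) and Txn1 by 0.23 (interval -0.38 to 0.84), both with overlapping groups. Gpx4 had the highest change of the 9, 0.89 (interval -0.04 to 1.83), while its sum with Gpx4-ps2 changed by -0.40, and neither passed (limma adjusted p 0.348 and 0.362). Gpx1 had 12.22, 12.23 and 11.98 on day 8 and 12.37 to 12.61 on day 14, 1 of 9 enzymes without overlap where 10.1% of all kept genes had none. Its change of 0.34 had a limma adjusted p of 0.264. Gpx1 was also the 1 of 9 with an unadjusted p under 0.05, where 15.4% of all kept genes had one. Prdx5 changed by 0.40 and Txnrd1 by -0.24, and neither passed (limma adjusted p 0.342 and 0.432). In GSK, Gpx4 changed by 0.43 and Prdx1 by -0.18 between the days, neither of which passed (limma adjusted p 0.582 and 0.455).

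The wider pathway was followed in 7 lists with 83 genes, of which 71 were kept: glutathione synthesis and recycling, other glutathione peroxidases and transferases, the rest of the peroxiredoxin and thioredoxin system, other superoxide and peroxide enzymes, selenoprotein synthesis, regulators of NRF2, and other NRF2 targets. On day 14, 4 of the 71 rose and 6 fell with GSK pre-treatment, where 5.1% and 5.73% of all kept genes did. On day 8, 0 of the 71 passed.

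The genes that rose on day 14 have different roles. Gsr, glutathione reductase, which restores oxidised glutathione and sits on 2 lists, had 4.95 ± 0.14 in DMSO and 5.54 ± 0.13 in GSK (SD, n = 4 each), a change of 0.59 with a limma adjusted p of 0.026. It was 1 of 13 kept genes of glutathione synthesis and recycling to pass, and that list's median change was 0.19. Gsto1, an omega-class glutathione transferase, rose by 0.54 (limma adjusted p 0.0451), 1 of 9 on its list. Fth1, the ferritin heavy chain that stores iron, rose by 1.01 (limma adjusted p 0.0271), and Esd, an esterase that acts in glutathione-dependent formaldehyde removal, by 0.66 (limma adjusted p 0.0492). Of Esd's 31-base words, 12.1% occur in other genes, and of Fth1's, 3.24%.

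Those that fell included 3 of the 9 regulators of NRF2. Mafk, a small MAF partner of NRF2 and of BACH1, went from 9.90 ± 0.11 to 8.85 ± 0.23 (SD, n = 4 each), a change of -1.05 with a limma adjusted p of 0.00132. Sqstm1, which encodes the p62 protein that binds KEAP1 and carries cargo to autophagy, changed by -0.69 (limma adjusted p 0.0166). Bach1, the repressor that competes with NRF2, changed by -0.46 (limma adjusted p 0.032). The partners at the centre of the pathway did not pass: Nfe2l2 had a change of 0.22 (interval -0.22 to 0.65) and Keap1 of 0.03 (interval -0.24 to 0.29). Txn2, the mitochondrial thioredoxin, changed by -0.61 (limma adjusted p 0.0241), 1 of 16 on its list, where its cytosolic counterpart Txn1 rose. Tkt, a transketolase of the pentose phosphate pathway, changed by -0.66 (limma adjusted p 0.0235). Ftl1, the ferritin light chain, which was outside the rule for named genes and was chosen after its value was seen, changed by -0.56 (limma adjusted p 0.0471). Ftl1 shares 54.4% of its 31-base words with Ftl1-ps1, and after quantile normalisation its change was -0.12 (limma adjusted p 0.641).

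Among these 10 genes, Mafk passed in all 14 fits that left out 1 library (limma adjusted p 0.00073 to 0.00758). The other 9 ended when GSK day 14 library 4 was left out (limma adjusted p 0.0731 to 0.161), and also when DMSO day 14 library 2 was (0.0596 to 0.158). Calls also ended without DMSO day 14 library 1 (Gsr, Txn2, Tkt, Ftl1), 3 (Esd) or 4 (Gsto1, Fth1, Esd, Ftl1), and without GSK day 14 library 1 (Gsr, Gsto1, Bach1, Esd, Ftl1), 2 (Gsr, Gsto1, Bach1, Tkt, Esd, Ftl1) or 3 (Gsto1, Bach1, Fth1, Esd, Ftl1). Day 8 libraries, which enter the shared estimate of spread, ended the calls of Esd (DMSO 2, GSK 2), of Gsto1 (DMSO 3, GSK 2, GSK 3) and of Ftl1 (DMSO 3, GSK 2, GSK 3). In these cases the limma adjusted p was 0.0503 to 0.117.

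Other settings ended these day 14 calls too. In the libraries with AY036118 higher, Gsto1 (0.30, limma adjusted p 0.133), Esd (0.43, 0.105), Fth1 (0.73, 0.0946) and Bach1 (-0.43, 0.0533) no longer passed. With that split as a term 8 of the 10 ended (limma adjusted p 0.055 to 0.185), all but Gsr and Mafk. Adding the mean of the 4T1 markers to the fit ended the same 8 (limma adjusted p 0.0613 to 0.158), with changes of 0.51 for Gsto1, 0.43 for Esd and 1.00 for Fth1. Without the filter on low values all but Mafk and Sqstm1 ended.

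**Figure D4:**
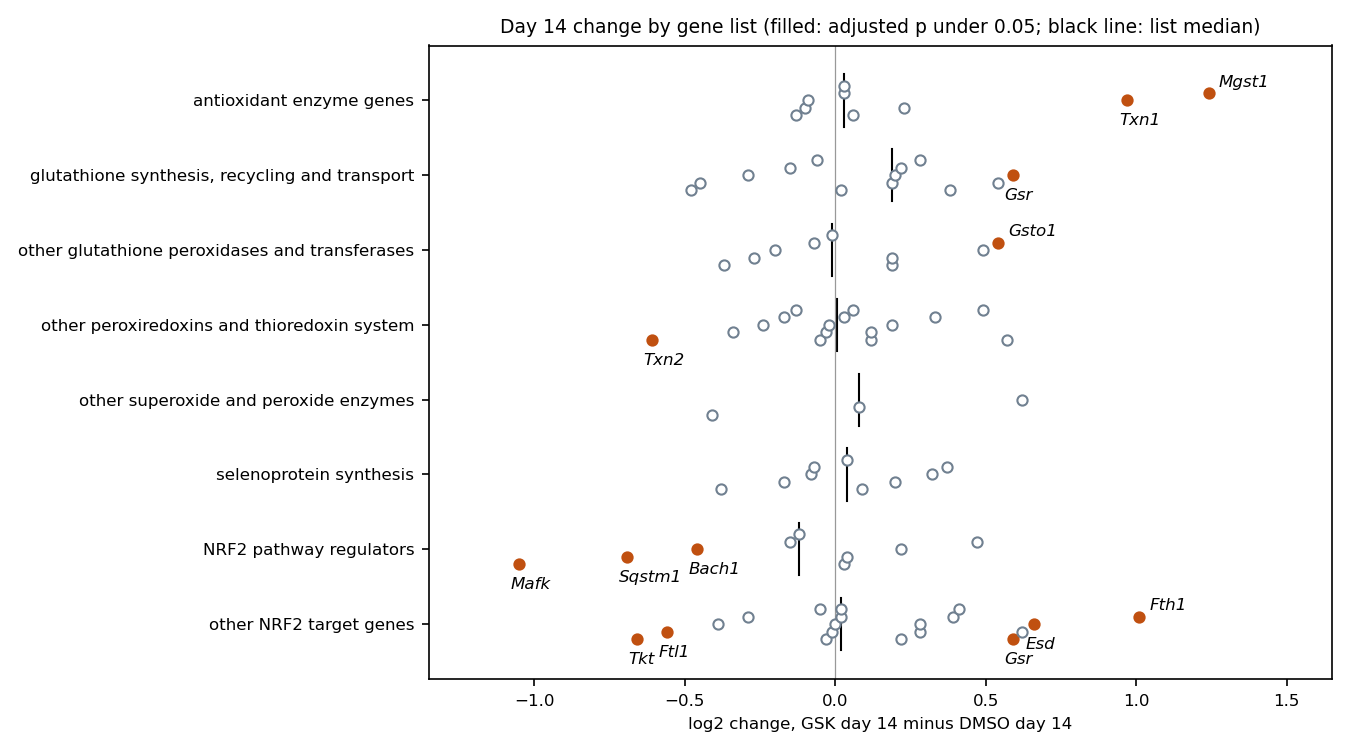
Log2 change on day 14, GSK minus DMSO (x axis), of the 9 enzymes tested and of the kept genes of the 7 pathway lists (y axis, 1 row each); filled points passed the adjusted p threshold of 0.05 and black lines are list medians. Passing genes lie on both sides of 0, from Mafk at -1.05 to Mgst1 at 1.24.

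Over both days, 5 of the 71 pathway genes rose and 5 fell, where 6.73% and 7.77% of all kept genes did. Gsto1 rose by 0.65 (limma adjusted p 0.00483) and Gstm1, a mu-class glutathione transferase, by 0.49 (0.0336). Of Gstm1's 31-base words, 28.8% occur in other genes. Gsr rose by 0.38 (0.04), Scly, which releases selenium from selenocysteine, by 0.45 (0.0112), and Cul3, the ubiquitin ligase scaffold that works with KEAP1, by 0.55 (0.0452). Mafk changed by -0.83 (0.000635), Tkt by -0.61 (0.00705), Trnau1ap, a factor of selenocysteine insertion, by -0.59 (0.0314), Sqstm1 by -0.43 (0.0286) and Hmox1, haem oxygenase, by -0.39 (0.0411). Gsto1, Scly, Mafk and Tkt passed in all 14 fits that left out 1 library. The other 6 ended in 7 to 11 of the 14 each, with adjusted p up to 0.138, and every library except DMSO day 14 library 3 ended at least 1 of them. Within the libraries with AY036118 higher, of which DMSO day 8 holds 1, Trnau1ap (-0.13), Gstm1 (0.22) and Sqstm1 (-0.46) did not pass. With that split as a term these 3, Scly and Cul3 did not (limma adjusted p 0.0522 to 0.171), and with the 4T1 epithelium covariate all 10 passed. Gsr, Gstm1, Trnau1ap, Sqstm1, Cul3 and Hmox1 did not pass without the filter on low values (limma adjusted p 0.0642 to 0.106). Quantile normalisation ended Gsr, Gstm1, Sqstm1, Cul3 and Hmox1 (limma adjusted p 0.0556 to 0.122). A block for the replicate number ended Gsr, Trnau1ap, Cul3 and Hmox1 (limma adjusted p 0.0521 to 0.0636).

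Between the days in GSK, 1 of the 71 rose and 4 fell, where 3.05% and 3.95% of all kept genes did, and in DMSO 0 of the 71 passed. Gsr rose by 0.79 (limma adjusted p 0.014). Ggt5, a gamma-glutamyl transferase that breaks down extracellular glutathione conjugates, changed by -1.02 (0.00832), Sqstm1 by -0.84 (0.0124), Bach1 by -0.60 (0.0218) and Mafk by -0.56 (0.0369). Without GSK day 8 library 1, all 5 calls ended (limma adjusted p 0.0541 to 0.222). Calls also ended without GSK day 8 library 2 (Mafk, Bach1) and without GSK day 14 library 1 (Mafk), 2 (Mafk), 3 (Mafk, Bach1) or 4 (Gsr, Mafk, Bach1), with adjusted p of 0.0535 to 0.122. Ggt5 (-0.90, limma adjusted p 0.0535) and Mafk (-0.43, 0.151) did not pass within the libraries with AY036118 higher. The fall of the 4T1 epithelium markers given above stands beside these changes as well, and with their mean as a covariate 0 of the 5 passed, each with a limma adjusted p of 1.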

How the data were processed

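The deposited table holds log2-scale expression values made by the authors for 24556 genes in 14 libraries. Per the submitters' processing notes, Bowtie2, RSEM 1.2.29 and DESeq2 1.12.4 were used, with mm10 and GRCh38 as builds. The transformation is not given in the sources used here, and a transformation that shrinks low values would understate their changes. Symbols and coordinates came from GENCODE M21 (GRCm38) by exact identifier, with 24483 identifiers matched and 73 not. Promoters came from RefSeq (GRCm38.p6).

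A limma 3.58.1 model (R 4.3.3) held a mean for each of the 4 groups, with trended empirical Bayes variances and two-sided tests, and was tested on simulated data. TMM factors of 1 alternative were computed by their formula, without weights. The members and lists were chosen with earlier results of these data known. The rule for named genes took all 10 enzymes, Adgre1, and from each pathway list up to 4 passing genes with the largest change in each comparison. Alternatives covered the pseudocount, the filter, scaling, the variance model, the samples fitted, the replicate number, the ribosomal RNA split, marker covariates and left-out libraries.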

Additional observations from a re-analysis of the deposited data

How the results depend on the processing

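The depth is unknown, so no counting error can be given. Of 63 gene changes given one by one, 1685 alternatives were computed: 1388 kept their direction and side of the threshold, 227 no longer passed, 16 passed only there and 54 turned sign. The causes of these changes were not tested, beyond the fewer genes or samples that an alternative itself holds. The counts of enzymes that passed on day 8, in the difference between the days and between the days in DMSO were 0 throughout.

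Leaving out each library gave these ranges of passing genes: 0 to 208 on day 8 (23 with all libraries), 221 to 1628 on day 14 (1287), 786 to 2299 for the mean of both days (1724), 1 to 12 for the difference (1), 24 to 305 between the days in DMSO (98) and 112 to 1218 in GSK (833). Passing enzymes ranged from 0 to 2 on day 14, 0 to 2 for the mean and 1 to 2 between the days in GSK. Changes that turned sign ranged on day 8 from -0.06 to 0.16 for Gpx1, -0.34 to 0.23 for Txn1, -0.13 to 0.30 for Gclm, -0.37 to 0.30 for Mgst1 and -0.11 to 0.34 for Sod2. On day 14 they ranged from 0.00 to 0.10 for Gpx1, -0.22 to 0.09 for Prdx5, -0.08 to 0.14 for Gclm and -0.09 to 0.09 for Sod2. Between the days Txn1 in DMSO ranged from -0.01 to 0.50 and Gpx4 in GSK from -0.01 to 0.80.

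Without the filter, the passing genes were 0 on day 8, 540 on day 14, 951 for the mean, 30 between the days in DMSO and 257 in GSK, with 1 enzyme on day 14 and 1 between the days in GSK. With a minimum of 50 there were 37 on day 8. Fitting only the groups compared gave 2 on day 8, 22 between the days in DMSO and 1517 in GSK. A pseudocount of 10 gave 1 enzyme for the mean. With the split by ribosomal RNA gene as a term there were 8, 362, 629 and 471 genes on day 8, on day 14, for the mean and between the days in GSK, and 1 enzyme on day 14. With AY036118-high libraries only there were 76 on day 8, 12 for the difference, 26 between the days in DMSO and 290 in GSK, with 1 enzyme for the mean and 1 between the days in GSK. With the 4T1 epithelium covariate there were 0, 367, 3 and 1 genes on day 8, on day 14, and between the days in DMSO and GSK, with 1 enzyme on day 14, 2 for the mean and 0 between the days in GSK. The neutrophil covariate gave 44 genes between the days in DMSO and 1 enzyme for the mean. Leaving out library 1 of each day 8 group, chosen after the data were seen, gave 45, 2089 and 174 genes on day 8, on day 14 and between the days in GSK, with 2 enzymes for the mean and 1 between the days in GSK. The summed Gpx4 pair, which lies mostly on the pseudogene's row, passed for the mean. It was counted there in place of Gpx4, and the other enzymes did not pass. It also passed on day 14 and between the days in GSK, and was lower each time.

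Small changes turned sign as follows. With that split as a term, Gpx1 had -0.04 on day 8 and -0.05 on day 14, and Gclm -0.09 on day 14. In AY036118-high libraries, day 8 changes were -0.04 for Prdx5, 0.31 for Txn1, -0.27 for Gclm and 0.59 for Mgst1. These day 8 changes rest on 1 DMSO library. In the same setting Gpx1 had -0.02 on day 14, and Gpx4 -0.01 between the days in GSK. With the 4T1 covariate, Txn1 had 0.31 and Mgst1 0.39 on day 8, Gpx1 -0.04, Gclm -0.02 and Sod2 -0.11 on day 14, Txn1 -0.30 and Mgst1 -0.25 between the days in DMSO, and Gpx1 -0.06 and Adgre1 -0.22 in GSK. With the neutrophil covariate Txn1 had -0.09 and Mgst1 -0.02 between the days in DMSO. Quantile normalisation gave 0.06 for Prdx1, 0.01 for Prdx5 and -0.04 for Gclm on day 14. Without the first day 8 libraries Txn1 had 0.51, Gclm -0.06 and Mgst1 0.58 on day 8, and Gpx4 -0.01 between the days in GSK. Summing Gpx4 with Gpx4-ps2 gave -0.58, -0.95, -0.77, -0.40 and -0.76 on day 8, on day 14, for the mean, and between the days in DMSO and GSK. The last passed (limma adjusted p 0.0367) but not without GSK day 8 library 1 or 2 or GSK day 14 library 1, 2 or 4 (up to 0.236), nor in AY036118-high libraries (-0.53, 0.137).

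The labels give the groups shared replicate numbers, but same-numbered libraries deviated together (r over 0.1) in 5 of 19 pairs, beside 14 of 54 differently numbered pairs, so the numbers were not taken as pairing. With the replicate block, 4 genes passed for the difference, 65 between the days in DMSO and 301 in GSK, with 1 enzyme there.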
